A study of Mus musculus with 14 samples.

Results

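The receptors that bind type I interferon and interferon-γ, and the kinases and factors coupled to them, were followed as 9 genes in splenocytes of immunized mice. They are Ifnar1 and Ifnar2, the receptor chains of type I interferon, Ifngr1 and Ifngr2, the chains of the interferon-γ receptor, the Janus kinases Jak1, Jak2 and Tyk2, and Stat2 and Irf9. Array probes were assigned to a gene through their accession in RefSeq, and every probe of the 9 genes was read. This gave 15 of the 56605 probes of the array, and all 15 were among the 31766 probes bright enough to be tested, so that all 9 genes were among the 24908 genes tested. Type I interferon brings its receptor chains together, which activates TYK2 and JAK1 at their tails, and these phosphorylate STAT2. Phosphorylated STAT2 joins IRF9 in the complex ISGF3, which binds the interferon-stimulated response element (ISRE) of antiviral genes. Interferon-γ instead uses JAK1 and JAK2, and its signal reaches genes with a gamma-activated site (GAS), and in the spleen both routes act on lymphocytes and on myeloid cells.

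The mice were 7 wild-type (WT) and 7 Sting gt/gt animals, all C57BL/6 and 10 to 14 weeks old, and every one had been injected with chicken type II collagen (CII) in complete Freund's adjuvant (CFA) 2 weeks before the spleen was taken. STING is the adaptor that turns sensing of cytosolic DNA into type I interferon, and the Sting gt allele, golden ticket, came from chemical mutagenesis with ENU, so that Sting gt/gt mice carry it in every cell. The WT mice were bought from another source than the Sting gt/gt mice, and no array of a mouse without CFA + CII was analysed here, so the arrays compare genotypes under immunization and do not show the effect of immunization. The question asked of the 9 genes is whether their transcripts differed between the genotypes.

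Each mouse gave 1 one-colour array, with 30781 to 34400 probes well above background. The arrays had been scanned on 2 days. Replicates 1 to 3 of both genotypes were scanned on day 1 and replicates 4 to 7 on day 2, and these days were parted by a first principal component that held 43% of the variance. On scan day 2 no slide held both genotypes, so genotype there cannot be told apart from slide. The Sting transcript, Sting1, stood at a log2 signal of 2.61 ± 0.17 in WT and 2.64 ± 0.10 in Sting gt/gt mice (SD, n = 7 each), which does not check the labels, since the allele is a point mutation. One array stood apart, WT replicate 4, where 4 pancreatic genes averaged a log2 signal of 7.41. They averaged -3.33 to -2.90 on the scan day 1 arrays and -2.55 to 0.91 on the other scan day 2 arrays. Leaving out WT replicate 4 thus does not bring scan day 2 to the level of scan day 1. For genes and probes called on scan day 2, differences are therefore given with and without WT replicate 4, as is the share of genes called. Other results on that day, such as marker and target lists, groups without overlap and permutation tests, include it unless stated.

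Signals below are log2 intensities minus the 75th percentile of the array, differences are Sting gt/gt minus WT on that log2 scale, and unadjusted and Benjamini-Hochberg adjusted p-values come from limma. A gene was read from its brightest probe, in the fit over genes, and its other probes from the fit over all probes. A gene was called at an unadjusted p under 0.05, and no probe of the 9 genes had an adjusted p under 0.05. Of the 9 genes, 5 had a lower and 4 a higher mean in Sting gt/gt mice, and their median difference was -0.06, beside 11342 lower and 13566 higher and a median of 0.02 over all genes tested. Ifnar1 was the 1 gene of the 9 that was called, where 867 of all genes, or 3.48%, were called. With a replicate block, which groups same-numbered arrays and is not a known pairing of mice, Ifnar1 was likewise the 1 called. The count over all genes was then 1415. Of the 15 probes 1 was called, where 3.43% of all probes were, and 11 of the 15 were lower.

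**Figure D1:**
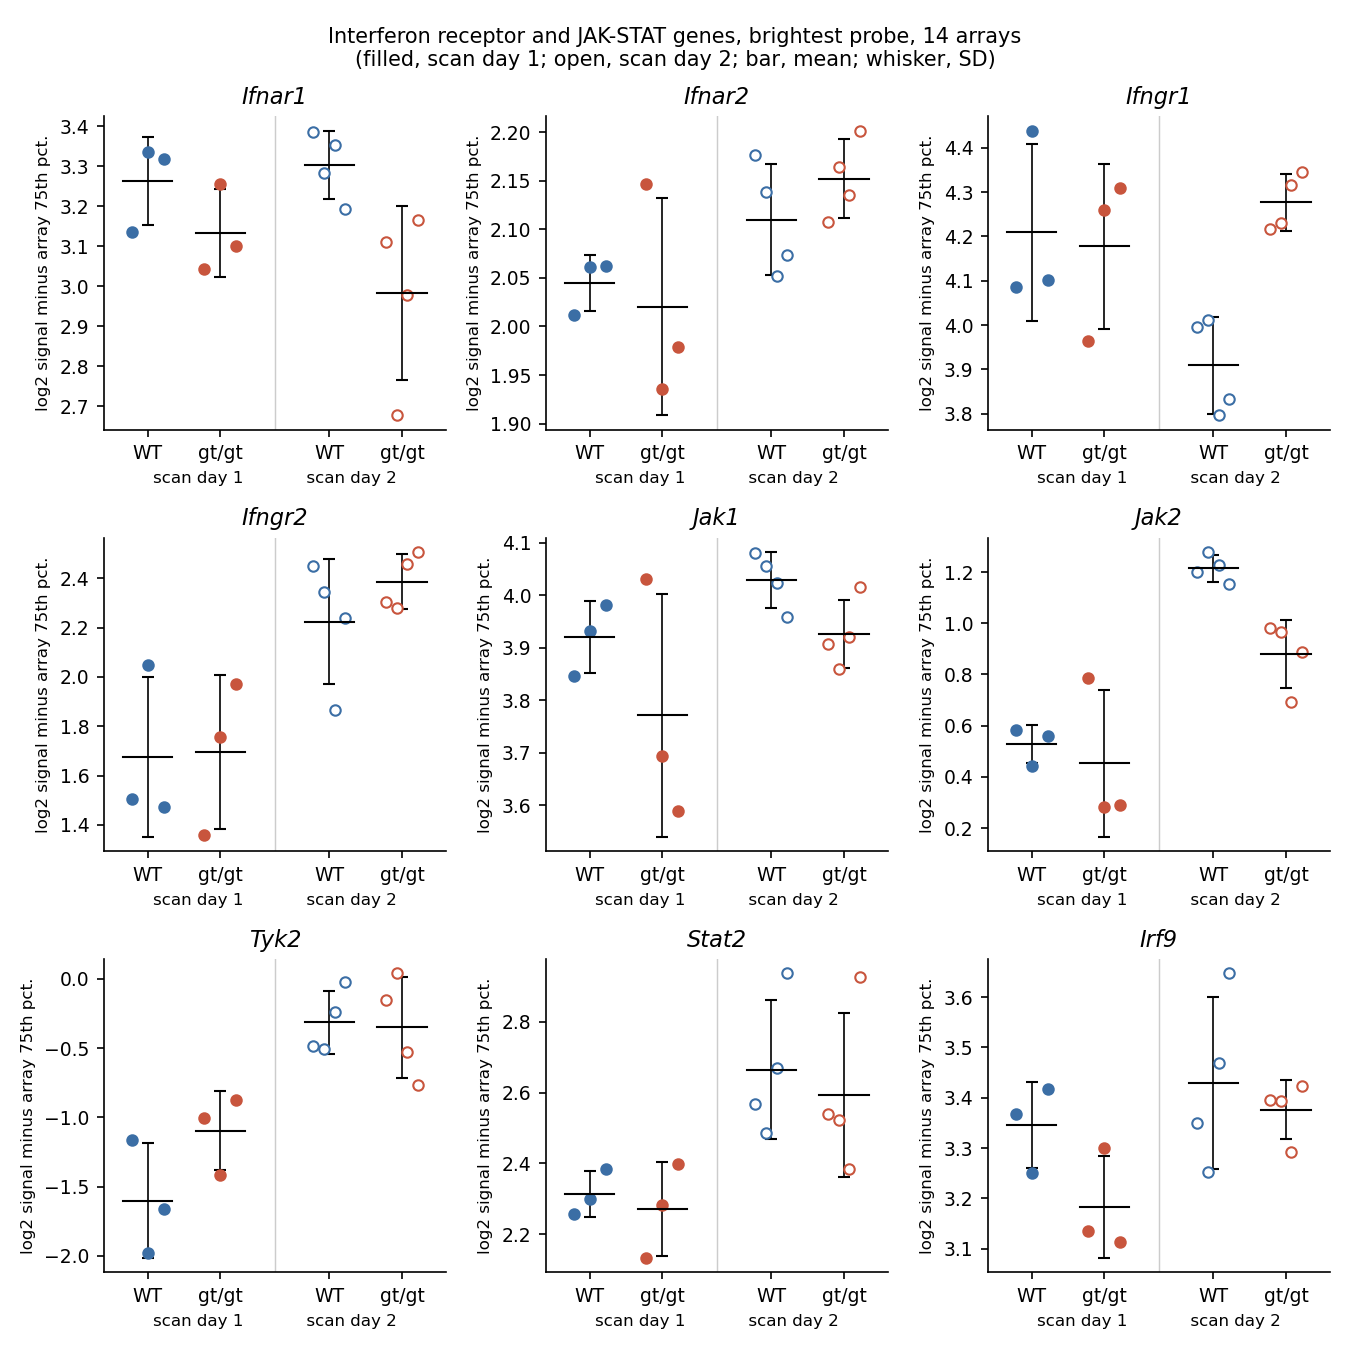
Log2 signal of the 9 genes, minus the 75th percentile of the array, on each of 14 arrays, in 1 panel a gene with its own axis. Filled points are scan day 1 (3 WT and 3 Sting gt/gt mice), open points scan day 2 (4 and 4), bars are means and whiskers SD. On scan day 2 the Sting gt/gt mice lie below all WT mice for Ifnar1 and Jak2 and above them for Ifngr1, and Tyk2, Jak2 and Ifngr2 stand higher on scan day 2 in both genotypes.

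Ifnar1 was lower in Sting gt/gt mice at the unadjusted threshold, though not after adjustment. IFNAR1 is the low-affinity chain of the type I receptor and the one that TYK2 binds. Its brightest probe, A_66_P120628, ranged from 3.14 to 3.38 with a median of 3.32 in the 7 WT mice, and from 2.68 to 3.25 with a median of 3.10 in the 7 Sting gt/gt mice. The Sting gt/gt mice lay toward the low end with some overlap between the groups, and replicate 5 was the lowest of all arrays. The difference was -0.24 (SE 0.10, 95% confidence interval -0.44 to -0.03), a fold of 0.847, with an unadjusted p of 0.0251 and an adjusted p of 0.9998 by limma. An exact two-sided permutation test over the 3432 ways to part the 14 arrays gave p = 0.00466. Without Sting gt/gt replicate 5 the difference was -0.18 (unadjusted p = 0.0541, limma), so the call rested on that array, and with slide as a random block it was -0.19 (unadjusted p = 0.105). Without WT replicate 4 it was -0.22, with an unadjusted p of 0.0482 in the fit over genes and of 0.0504 in the fit over probes. A list made in the study from these same arrays also holds Ifnar1 and Irf9, which is no independent evidence.

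The probes of Ifnar1 were not alike. Probe A_51_P168545 ranged from -1.08 to -0.51 with a median of -0.73 in WT and from -1.14 to -0.55 with a median of -0.95 in Sting gt/gt mice. Its difference was -0.17 (SE 0.12, unadjusted p = 0.159). Probe A_55_P2438722, the dimmest, differed by -0.02 (SE 0.12, unadjusted p = 0.872), and its groups overlapped almost wholly, with medians of -3.59 and -3.70. Averaged over its 3 probes, Ifnar1 was lower by -0.14 (unadjusted p = 0.123) and was not called. The promoter window of Ifnar1 is shown because it is the called gene and because its window holds a GAS match over the transcription start. It spans 250 bases before to 50 after the start on the plus strand of chr16:91484965-91485264 (RefSeq, GRCm38.p6), with the GAS letters TTCNNNGAA in capitals.
Ifnar1 promoter: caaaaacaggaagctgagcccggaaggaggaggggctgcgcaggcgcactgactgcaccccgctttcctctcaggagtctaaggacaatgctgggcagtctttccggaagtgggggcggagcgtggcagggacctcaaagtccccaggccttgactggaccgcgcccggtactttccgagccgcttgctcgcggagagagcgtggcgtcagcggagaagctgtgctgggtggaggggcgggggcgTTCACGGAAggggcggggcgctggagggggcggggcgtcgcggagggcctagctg
The match begins 5 bases before the start. TTCNNNGAA, which reads the same on both strands, was found in 8.3% of all 32851 windows of this length, and among the 9 genes in Ifnar1 and Ifnar2.

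Ifnar2, whose product is the high-affinity chain that JAK1 binds, did not pass the test. Its brightest probe, A_52_P190405, ranged from 2.01 to 2.18 with a median of 2.06 in WT and from 1.94 to 2.20 with a median of 2.14 in Sting gt/gt mice. The Sting gt/gt range enclosed the WT range, and the difference was 0.01 (SE 0.08, 95% confidence interval -0.15 to 0.18, unadjusted p = 0.864). The second probe, A_51_P338924, ranged from 1.56 to 1.89 in WT against 1.41 to 1.83 in Sting gt/gt mice, with a difference of -0.14 (SE 0.09, unadjusted p = 0.147, exact permutation p = 0.0682). The probes thus gave different signs. Ifnar2, Il10rb, Ifnar1 and Ifngr2 follow each other in this order among the protein-coding genes of chromosome 16. Il10rb, a chain of the interferon-λ and IL-10 receptors between the type I chains, differed by 0.01 (SE 0.12).

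The chains of the interferon-γ receptor were both higher in Sting gt/gt mice without passing the test over 14 arrays. Ifngr1, the ligand-binding chain, ranged from 3.80 to 4.44 with a median of 4.01 in WT and from 3.96 to 4.35 with a median of 4.26 in Sting gt/gt mice. WT replicate 2 was the highest of all arrays, and Sting gt/gt replicate 1 lay below the other 6 of its group. The difference was 0.20 (SE 0.11, 95% confidence interval -0.03 to 0.42, unadjusted p = 0.0848, exact permutation p = 0.0618). It passed the threshold when either of these arrays was left out, with 0.26 (unadjusted p = 0.0141) without WT replicate 2 and 0.24 (unadjusted p = 0.0362) without Sting gt/gt replicate 1. With slide as a random block it was 0.09 (unadjusted p = 0.467, limma), and a fixed block for slide turned it to -0.10 (unadjusted p = 0.508).

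Ifngr2 encodes the chain that brings JAK2 to the interferon-γ receptor. It ranged from 1.47 to 2.45 with a median of 2.05 in WT and from 1.36 to 2.51 with a median of 2.28 in Sting gt/gt mice. The groups overlapped, and the difference was 0.10 (SE 0.20, 95% confidence interval -0.33 to 0.54, unadjusted p = 0.625). It was 0.016 without WT replicate 3 and 0.22 without Sting gt/gt replicate 1, and turned to -0.037 with slide as a random block. The spread was mostly one of scan day, described below. Ifngr1 and Ifngr2 have 1 probe each, so no second probe can be set beside them.

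Of the Janus kinases, none was called over 14 arrays. Jak1, which serves both receptors, ranged from 3.85 to 4.08 with a median of 3.98 in WT and from 3.59 to 4.03 with a median of 3.91 in Sting gt/gt mice. The WT mice were tightly grouped and the Sting gt/gt mice reached lower. The difference was -0.12 (SE 0.09, 95% confidence interval -0.32 to 0.07, unadjusted p = 0.193, exact permutation p = 0.0997).

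Jak2, the kinase of the interferon-γ receptor and of many cytokine receptors, ranged from 0.44 to 1.28 with a median of 1.15 in WT and from 0.28 to 0.98 with a median of 0.79 in Sting gt/gt mice by its brightest probe, A_66_P106863. The difference was -0.22 (SE 0.17, unadjusted p = 0.218). When scan day was a term of the model, the same difference had an SE of 0.10 and an unadjusted p of 0.0339, with an adjusted p of 0.6783 by limma. In that model Ifnar1 and Jak2, or 2 of 9, were called, both lower, where 7.27% of all genes were called. Jak2 was not called with the replicate block (unadjusted p = 0.0516) or with slide as a random block, at -0.18 (unadjusted p = 0.283), and turned to 0.037 with slide as a fixed block (unadjusted p = 0.815). The other Jak2 probe, A_52_P309376, differed by -0.17 (SE 0.13, unadjusted p = 0.22), over ranges of -2.07 to -1.12 in WT and -1.96 to -1.45 in Sting gt/gt mice.

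Tyk2, the kinase of the type I receptor, had the widest spread of the 9 genes. It ranged from -1.98 to -0.02 with a median of -0.51 in WT and from -1.42 to 0.04 with a median of -0.77 in Sting gt/gt mice. The mean was 0.20 higher in Sting gt/gt mice (SE 0.31, 95% confidence interval -0.46 to 0.86, unadjusted p = 0.537), while the median was lower. It was 0.010 without WT replicate 2 and 0.34 without WT replicate 7. The lowest arrays of both genotypes were those of scan day 1. Jak1 and Tyk2 have 1 probe each.

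The ISGF3 subunits Stat2 and Irf9 were lower in Sting gt/gt mice by every probe, and none passed the limma test. Stat2, by its brightest probe A_55_P2059606, ranged from 2.26 to 2.94 with a median of 2.48 in WT and from 2.13 to 2.93 with a median of 2.40 in Sting gt/gt mice. The highest array of each group was its replicate 7. The difference was -0.06 (SE 0.13, 95% confidence interval -0.34 to 0.23, unadjusted p = 0.667), and it turned to 0.012 without WT replicate 7. A second Stat2 probe, A_66_P102138, was well above background on 7 of 14 arrays, 4 WT and 3 Sting gt/gt, and differed by -0.23 (SE 0.27).

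Irf9, which gives ISGF3 its DNA contact, ranged from 3.25 to 3.65 with a median of 3.37 in WT and from 3.11 to 3.42 with a median of 3.30 in Sting gt/gt mice by its brightest probe, A_55_P2114938. The groups overlapped over most of their range. The difference was -0.10 (SE 0.09, 95% confidence interval -0.29 to 0.10, unadjusted p = 0.293). Its second probe, A_51_P127367, ranged from 1.88 to 2.36 in WT against 1.58 to 2.11 in Sting gt/gt mice. That difference was -0.23 (SE 0.11, 95% confidence interval -0.46 to 0.0048), with an unadjusted p of 0.0544 by limma and an exact permutation p of 0.035. It passed the unadjusted threshold in limma with scan day as a term (unadjusted p = 0.0375) and with the replicate block (unadjusted p = 0.0379), though not after adjustment.

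Promoter windows of Stat2 and Irf9 are shown because these 2 genes followed the interferon-stimulated genes from array to array, as described below. The Stat2 window lies at chr10:128270248-128270547 and the Irf9 window at chr14:55603735-55604034, both on the plus strand (RefSeq, GRCm38.p6). Capitals mark letters that match the ISRE core on either strand, which was searched as GAAA, any 2 bases and GAAA again.
Stat2 promoter: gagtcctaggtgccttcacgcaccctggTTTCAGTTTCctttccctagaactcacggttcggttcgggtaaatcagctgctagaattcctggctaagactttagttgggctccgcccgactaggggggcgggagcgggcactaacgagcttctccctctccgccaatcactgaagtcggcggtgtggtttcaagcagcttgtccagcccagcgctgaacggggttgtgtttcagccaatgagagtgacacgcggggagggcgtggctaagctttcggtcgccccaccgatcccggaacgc
Irf9 promoter: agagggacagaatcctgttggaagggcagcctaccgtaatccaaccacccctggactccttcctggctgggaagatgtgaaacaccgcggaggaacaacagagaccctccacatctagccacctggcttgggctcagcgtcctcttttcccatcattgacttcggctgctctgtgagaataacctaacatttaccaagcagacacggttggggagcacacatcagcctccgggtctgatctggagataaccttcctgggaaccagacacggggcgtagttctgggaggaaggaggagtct
The Stat2 match, TTTCAGTTTC, is on the opposite strand and begins 222 bases before the start. Neither this Irf9 window nor a second one, at chr14:55604329-55604628, holds the ISRE or the GAS letters, which says only that the letters are not in these windows. The ISRE core was found in 3.44% of the 32851 windows, and Stat2 was the 1 gene of the 9 with it. By gene, 3.99% of 27025 symbols had a window with it, and 10 of the 20 ISGF3 target genes with a window did. For the GAS letters the shares were 9.55% of symbols and 8 of 16 interferon-γ target genes with a window. The ISRE core was found in 7 of these 16.

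**Figure D2:**
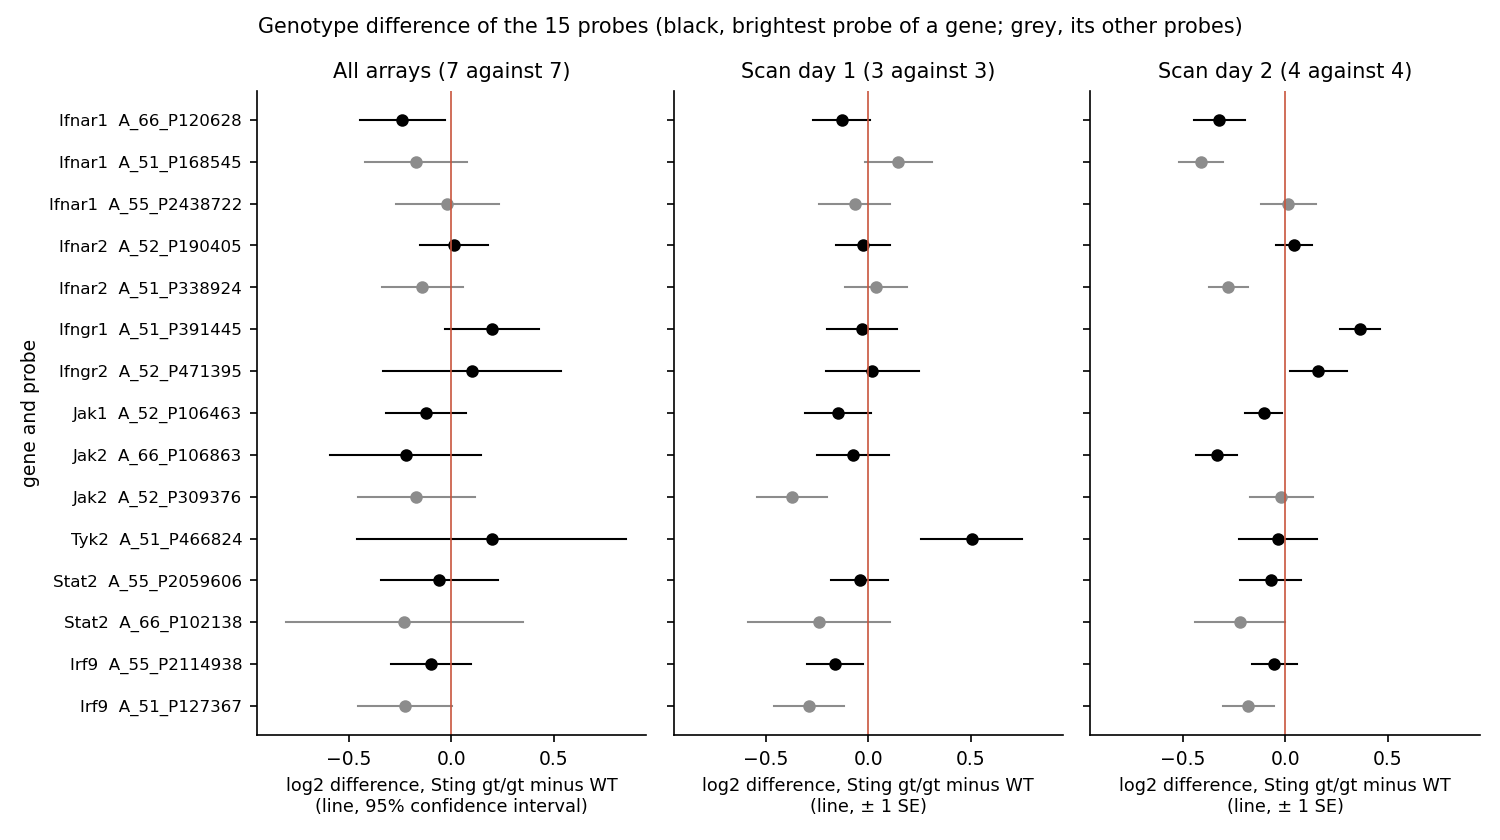
Difference in log2 signal, Sting gt/gt minus WT, of the 15 probes over all arrays (7 against 7, lines are 95% confidence intervals) and within scan day 1 (3 against 3) and scan day 2 (4 against 4, lines are 1 SE on each side), from the fit over probes. Black marks the brightest probe of a gene and grey its other probes. Over all arrays 1 interval, that of Ifnar1 probe A_66_P120628, lies wholly below 0.

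Within scan day 1, with 3 mice a group, none of the 9 genes was called, where 3.85% of all genes were. There 7 of the 9 were lower, with a median of -0.04, beside a median of 0.02 over all genes. Tyk2 had the largest difference of the 9 on that day, at 0.50 (SE 0.25, unadjusted p = 0.078). Its 3 WT arrays ran from -1.98 to -1.16 and its 3 Sting gt/gt arrays from -1.42 to -0.87, so the groups overlapped.

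Within scan day 2, with 4 mice a group, 3 of the 9 genes were called, where 23.3% of all genes were. The same 3 genes had groups that did not overlap, where 14.7% of all genes had such groups. Without WT replicate 4, 2 of the 9 were called, where 18% of all genes were. For 9 genes a count of 3 is near the former share and not far above the latter, and no more is read from it. For Ifnar1 the WT arrays read 3.19, 3.28, 3.35 and 3.38 and the Sting gt/gt arrays 2.68, 2.98, 3.11 and 3.17. The difference was -0.32 (SE 0.12, unadjusted p = 0.0299, adjusted p = 0.1696 by limma). Without WT replicate 4 it was -0.29 (unadjusted p = 0.0721), and leaving out WT replicate 5 or 6 or Sting gt/gt replicate 5 or 6 likewise lost the call.

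Jak2 on scan day 2 read 1.15, 1.20, 1.23 and 1.28 in WT and 0.69, 0.89, 0.96 and 0.98 in Sting gt/gt mice. The WT arrays lay within a narrow band above all Sting gt/gt arrays. The difference was -0.33 (SE 0.10, unadjusted p = 0.00836, adjusted p = 0.1003 by limma), and -0.34 without WT replicate 4 (unadjusted p = 0.0191). The second Jak2 probe did not share it, at -0.02 (SE 0.15) on scan day 2 and -0.37 (SE 0.17) on scan day 1.

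Ifngr1 on scan day 2 read 3.80, 3.83, 3.99 and 4.01 in WT and 4.22, 4.23, 4.32 and 4.35 in Sting gt/gt mice, so that every Sting gt/gt array was higher. The difference was 0.37 (SE 0.10, unadjusted p = 0.00393, adjusted p = 0.07763 by limma), and 0.40 without WT replicate 4 (unadjusted p = 0.00648). On scan day 1 it was -0.03 (SE 0.17). For each of the 3 genes the exact permutation test within scan day 2 gave p = 0.0286, the smallest that 4 against 4 arrays allow.

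In the fit over genes 23.3% of all genes were called on scan day 2, and the share over all probes that day was not counted. Among the other probes, Ifnar1 probe A_51_P168545 and Ifnar2 probe A_51_P338924 were called on scan day 2. Ifnar1 probe A_55_P2438722, at 0.02 (SE 0.14), and Jak2 probe A_52_P309376, at -0.02 (SE 0.15), were not. Nor were Stat2 probe A_66_P102138, at -0.22 (SE 0.22), and Irf9 probe A_51_P127367, at -0.18 (SE 0.12). The Ifnar1 probe A_51_P168545 read -0.76, -0.72, -0.53 and -0.51 in WT and -1.14, -1.13, -0.96 and -0.95 in Sting gt/gt mice, a difference of -0.41 (SE 0.11, unadjusted p = 0.00347, adjusted p = 0.07657 by limma). The Ifnar2 probe A_51_P338924 read 1.75, 1.79, 1.87 and 1.89 in WT and 1.41, 1.59, 1.59 and 1.60 in Sting gt/gt mice, a difference of -0.28 (SE 0.09, unadjusted p = 0.0163), while the brighter Ifnar2 probe differed by 0.04 (SE 0.09). The groups of both probes did not overlap, where 14.7% of all genes, each read from its brightest probe, had such groups. Without WT replicate 4 the differences were -0.38 (unadjusted p = 0.0125) and -0.30 (unadjusted p = 0.0233).

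The genotype effect was compared between the scan days with an interaction term. It differed in 1 of the 9 genes, Ifngr1, where 18% of all genes passed the same unadjusted threshold. For Ifngr1 the effect was 0.40 higher on scan day 2 (unadjusted p = 0.0368, adjusted p = 0.2463 by limma), and an exact permutation of genotypes within scan days, over 1400 ways, gave p = 0.0514. The call was lost without any one of WT replicates 2, 6 and 7 and Sting gt/gt replicates 1, 6 and 7, down to 0.28 without WT replicate 2 (unadjusted p = 0.11), and was kept without WT replicate 4, at 0.43 (unadjusted p = 0.0378). It was also lost with quantile normalization, at 0.31 (unadjusted p = 0.184, limma), without scaling, at 0.42 (unadjusted p = 0.0844), and in the deposited table, at 0.27 (unadjusted p = 0.262). Among the other probes, Ifnar1 probe A_51_P168545 differed by 0.15 on scan day 1 (SE 0.16), and its effect was lower by -0.56 on scan day 2 (unadjusted p = 0.00678, adjusted p = 0.1301 by limma, exact permutation p = 0.00571). For Ifnar2 probe A_51_P338924 the change was -0.32 (unadjusted p = 0.0591, exact permutation p = 0.0457).

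The level of 4 of the 9 genes differed between scan days over both genotypes, at an adjusted p under 0.05 that 38.8% of all genes passed. Tyk2 was higher on scan day 2 by 1.02 (SE 0.17, adjusted p = 0.000384 by limma), Ifngr2 by 0.62 (SE 0.13, adjusted p = 0.001685), Jak2 by 0.56 (SE 0.10, adjusted p = 0.000424) and Stat2 by 0.34 (SE 0.10, adjusted p = 0.01515). These shifts were larger than any genotype difference of the same genes over 14 arrays. Ifnar1 shifted by -0.05 (SE 0.09) and Ifngr1 by -0.10 (SE 0.10), within their error.

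Marker genes of B cells, erythroid cells and plasma cells moved with genotype on scan day 2 as well, when 23.3% of all genes were called. Averaged over the log2 signals of 5 B cell genes, WT mice stood at 1.58 to 2.15 and Sting gt/gt mice at 1.28 to 1.57, and 5 of 5 genes were lower at an unadjusted p under 0.05, from Cd79a, a signalling chain of the B cell receptor, at -0.39 to Pax5, the factor that fixes B cell identity, at -0.54. On scan day 1 all 5 were higher in Sting gt/gt mice and none was called, with means of 1.30 to 1.62 against 1.63 to 2.07. Erythroid genes stood at 5.15 to 5.58 in WT and 4.83 to 5.09 in Sting gt/gt mice on scan day 2, with 4 of 6 called lower, and plasma cell genes at 1.98 to 2.31 and 2.33 to 2.76, with 3 of 5 called higher. The erythroid gene Hba-a1, at 0.02, and the plasma cell gene Prdm1, at -0.28, went against their lists. Averages of T cell, NK cell, macrophage, dendritic cell and neutrophil genes differed by -0.06, 0.02, 0.01, 0.06 and 0.24, with overlapping groups. In RNA of a mixed spleen suspension fewer cells of a type and less RNA per cell cannot be told apart. The part of these shifts in the scan day 2 values of Ifnar1, Jak2 and Ifngr1 was not tested.

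**Figure D3:**
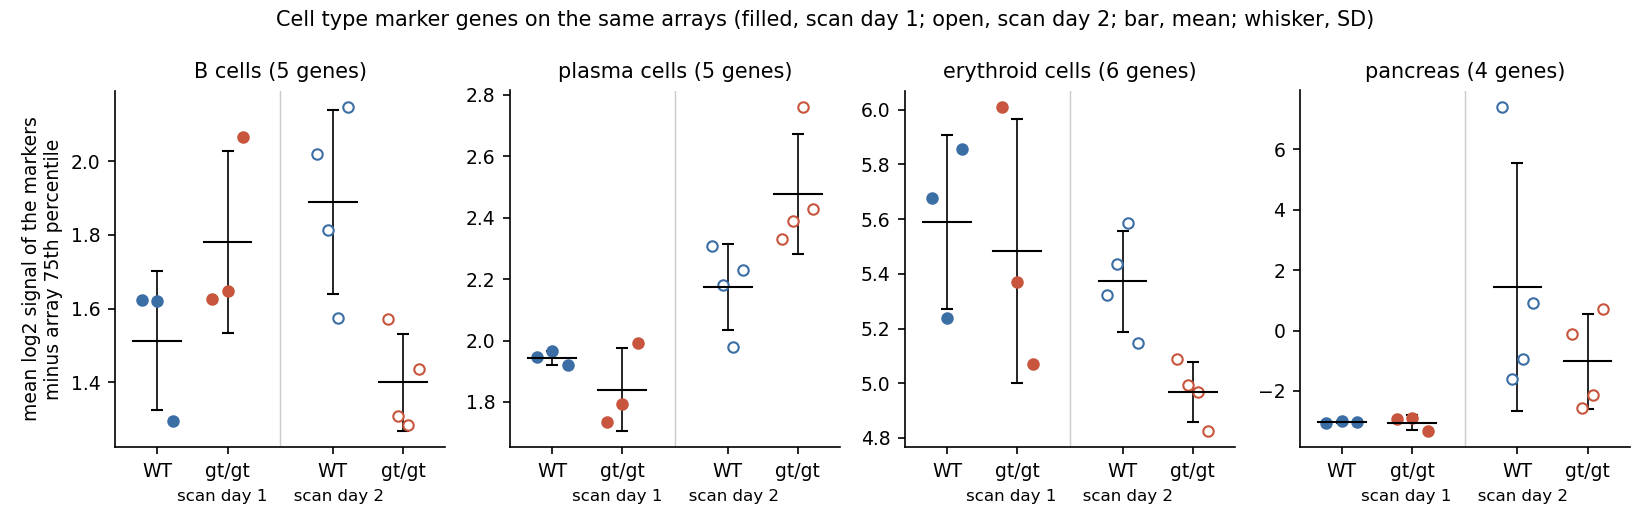
Mean log2 signal of marker genes of 4 cell types or tissues, minus the 75th percentile of the array, by genotype and scan day. Each point is 1 array, bars are means and whiskers SD, and each panel has its own axis. On scan day 2 the Sting gt/gt arrays lie below WT for B cell and erythroid genes and above WT for plasma cell genes, and WT replicate 4 stands at 7.41 for pancreatic genes.

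Upstream of the receptors, few interferon genes were bright enough to test. Of 18 type I interferon genes, 4 were tested (Ifna1, Ifna9, Ifna14 and Ifnab), 12 including Ifnb1 were not well above background on 7 of 14 arrays, and 2 had no matched probe. None of the 4 was called, and their differences ran from -0.001 for Ifna9 (SE 0.21) to 0.48 for Ifna1 (SE 0.41). Their signals were low, with Ifna1 at a mean of -4.47 in WT and -3.99 in Sting gt/gt mice. Probes of the Ifna family are for near-identical genes, so each name is uncertain. Ifng differed by -0.08 (SE 0.26), and Ifnlr1, the interferon-λ receptor chain, by 0.16 (SE 0.22).

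Beside the 9 genes, 5 other transducers and coactivators were tested, of which 3 were lower and none was called. Of 16 inhibitors of receptor or JAK-STAT signalling, such as the SOCS proteins and USP18, which binds IFNAR2 and blocks JAK1, 8 were lower, 8 higher and none was called. Usp18, itself interferon-induced, differed by -0.28 (SE 0.19, unadjusted p = 0.163).

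Downstream, 20 of 26 ISGF3 target genes tested had a lower mean in Sting gt/gt mice, and the median difference was -0.15. Where 11342 of all 24908 genes were lower and 3.48% were called, 2 of the 26 were called, both lower. They were Parp14, an ADP-ribosyltransferase of antiviral defence, at -0.28 (SE 0.10, unadjusted p = 0.0134), and Herc6, the mouse ISG15 ligase, at -0.32 (SE 0.12, unadjusted p = 0.0131), each with an adjusted p of 0.9998 by limma. The Parp14 call was lost with the mean of its probes, at -0.15 (unadjusted p = 0.194), and with slide as a fixed block, at -0.27 (unadjusted p = 0.0945). The Herc6 call was lost with slide as a random block, at -0.25 (unadjusted p = 0.0856), and as a fixed block, at -0.14 (unadjusted p = 0.507). The median was -0.23 on scan day 1, with 24 of 26 lower and none called. Of all 24908 genes, 11563 were lower that day and 3.85% were called. The median of the targets was -0.04 on scan day 2, with 18 of 26 lower, 4 called lower and 2 called higher. Of all genes, 11857 were lower on scan day 2 and 23.3% were called, so the number of called targets was near that share. Of 19 interferon-γ target genes 9 were lower, 10 higher and none called, with a median of 0.02. Whether the 2 days differ in this was not tested for the list.

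**Figure D4:**
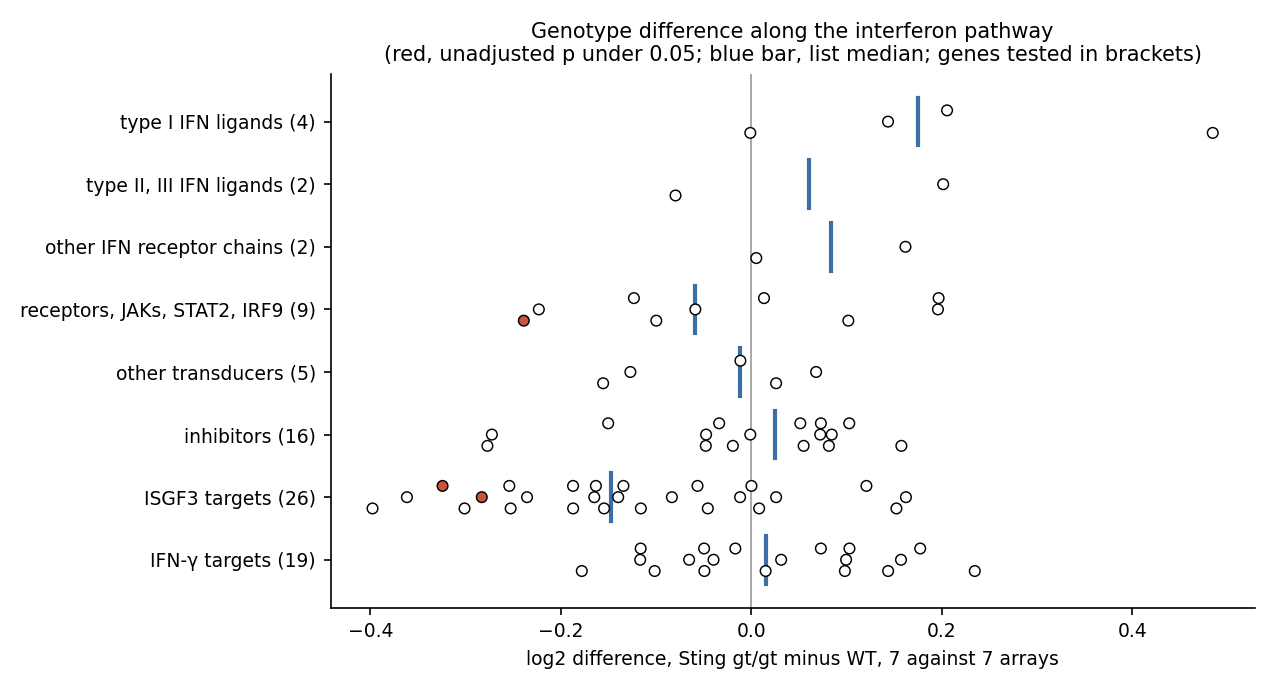
Difference in log2 signal, Sting gt/gt minus WT over 7 and 7 arrays, of each gene tested along the interferon pathway, by list. Red points are genes at an unadjusted p under 0.05 (Ifnar1, Herc6 and Parp14), blue bars are list medians, and the number of genes tested stands in brackets. The ISGF3 targets have a median of -0.15 and the 9 genes of -0.06.

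From array to array the 9 genes did not vary as a unit. With each scan day centred on its mean, Ifnar1 and Ifnar2 had a Pearson r of -0.21 over the 14 arrays, Ifngr1 and Ifngr2 of 0.80, Jak1 and Jak2 of 0.71, Stat2 and Irf9 of 0.63, and Ifngr1 and Jak2 of -0.82. For Stat2 and Irf9 it was 0.25 within scan day 1 and 0.80 within scan day 2. These values are descriptions, since arrays share slides, scan days and cell makeup. Stat2 and Irf9 were the 2 of the 9 that followed the ISGF3 targets. Both had r above 0 with 26 of 26 targets, with medians of 0.58 and 0.66, beside medians of -0.10 and -0.01 over all genes. For the other 7 genes the median over targets lay between -0.25 and 0.13, lowest for Ifnar2 and highest for Ifnar1.

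The genes closest in pattern were sought among 14730 others with a symbol. For Stat2 they were Ifit3 (r = 0.92), an antiviral IFIT protein, Ifi204 (r = 0.886) and Shfl (r = 0.859), and for Irf9 they were Ifi35 (r = 0.878), Irf7 (r = 0.856), the factor that amplifies interferon-α, and Gm16160 (r = 0.85). In both patterns WT replicate 7 was the high array of scan day 2, and Stat2 was nearly as high in Sting gt/gt replicate 7. For Ifnar1 they were Mark3 (r = 0.936), 4932438A13Rik (r = 0.93) and Pds5a (r = 0.929), for Ifnar2 Ntf3 (r = 0.865), Kank2 (r = 0.85) and C130074G19Rik (r = 0.844), for Ifngr1 Il11ra1 (r = 0.967), Rassf3 (r = 0.963) and Osbpl3 (r = 0.962), and for Ifngr2 Phlda1 (r = 0.974), Aktip (r = 0.966) and Skil (r = 0.95). For Jak1 they were Rab10 (r = 0.919), Lrrc8a (r = 0.897) and Smap2 (r = 0.894), for Jak2 Efcab14 (r = 0.961), Dmtn (r = 0.939) and Ubxn2a (r = 0.939), and for Tyk2 Npc2 (r = 0.958), Gpr180 (r = 0.953) and Sft2d1 (r = 0.944). None of the listed ISGF3 or interferon-γ targets is among the 3 closest to a receptor chain or a kinase.

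**Figure D5:**
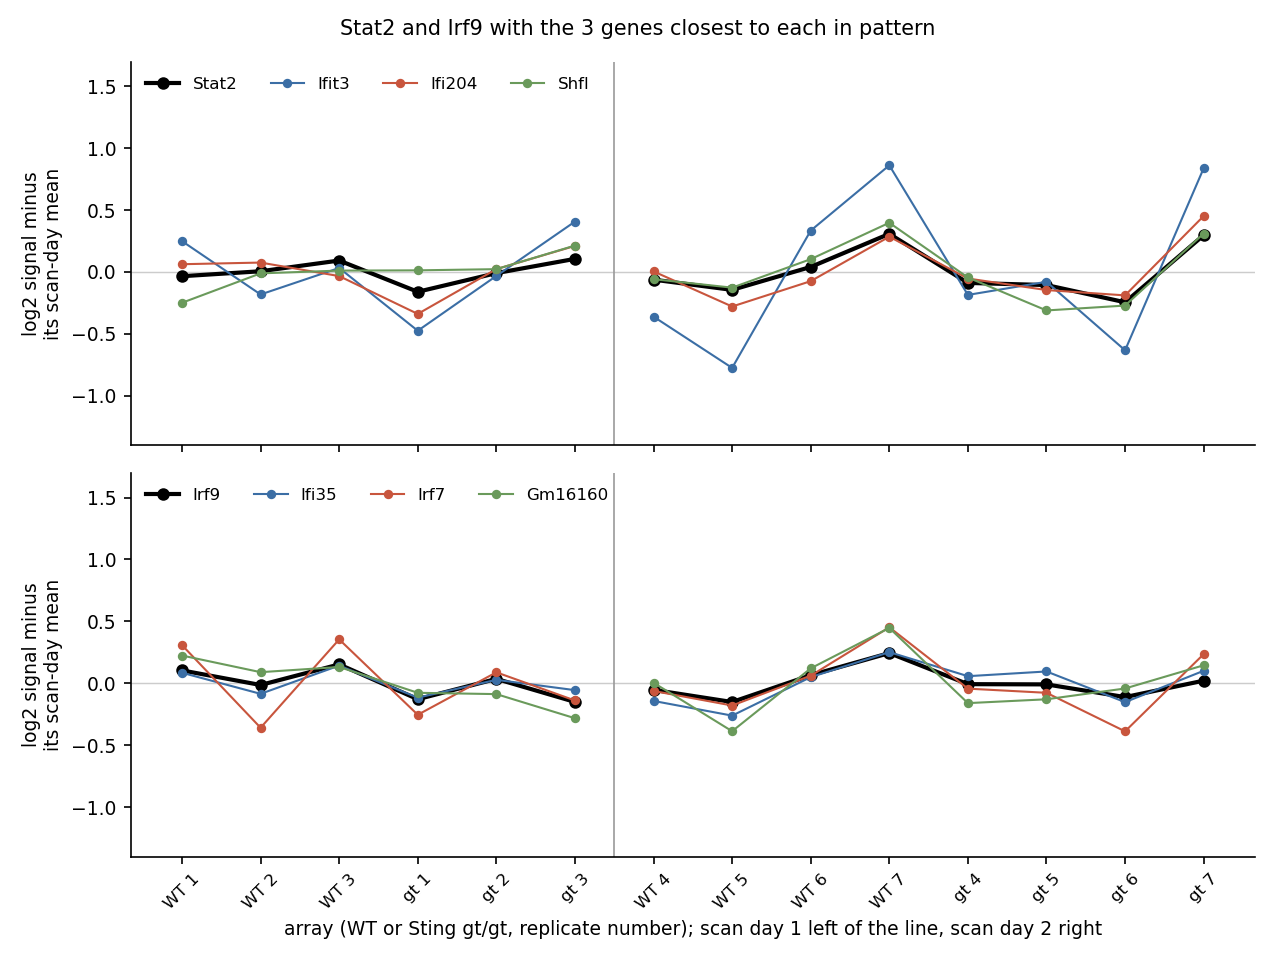
Log2 signal minus the mean of the scan day, on each of 14 arrays, for Stat2 (upper panel) and Irf9 (lower panel) in black and the 3 genes closest to each in pattern in colour. The vertical line parts scan day 1 from scan day 2. Stat2 and Ifit3 (r = 0.92) are both high in WT replicate 7 and Sting gt/gt replicate 7.

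The deposited series table, which the authors had put on a log2 scale, gave the same sign for all 9 genes. Ifnar1 differed by -0.25 (unadjusted p = 0.0228) and Jak2 by -0.24 (unadjusted p = 0.0187), so 2 of the 9 were called. Of all 24908 genes 1928 were called, against 867 with the scanner values. The remaining 7 genes lay between -0.13 for Jak1 and 0.15 for Ifngr1. On scan day 2 the deposited table called 3 of the 9 genes. Its calls over all genes that day were not counted, so nothing is read from that number.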

How the data were processed

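RNA of 14 spleen samples was measured on one-colour Agilent arrays. Per the file headers, the authors used Agilent Feature Extraction 11.0.1.1 to make the deposited processed intensity, which is corrected for background and not normalized between arrays. The deposited table of log2 values, whose normalization is not given in the sources used here, correlated with the log2 scanner values at 0.9951 to 0.9974 and had array medians of 5.485 to 5.518.

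From the intensities, log2 values minus each array's 75th percentile (562.0 to 766.1 before log2) were used. Outlier-flagged spots were dropped, the remaining spots of each probe were averaged, and the test took probes that were well above background on 7 or more of the 14 arrays. Accessions were named through RefSeq (32994 of 56605 probes). Its assembly is not that of the array's annotation, so only RefSeq's own promoter windows carry coordinates. Genotypes were compared with limma 3.58.1 in R 4.3.3, tested on simulated data, and single probes by exact permutation. The simulated arrays varied independently, without shared slides or cell makeup, so they do not give the error rate of these data. Replicates are separate mice as the study describes them.

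Same-numbered arrays, which share a scan day, deviated from their group means together (r = 0.155 to 0.533). Within scan days r was -0.407 to 0.248, so a pairing beyond scan day was not shown. The replicate block was run as an alternative only. Genes named were the 9 with all probes, pathway genes at an unadjusted p under 0.05 and the 3 closest in pattern to each of the 9; the marker, ligand and inhibitor genes named were chosen after their values were seen. A pathway gene that the rule names and a marker gene are not reported here and were left out of their lists. The 9 genes and all lists were chosen with earlier results of these data known. Alternatives covered scaling, normexp (offset 50), the deposited table, filters, outlier spots, probe averages, the methods' t-test and Mann-Whitney test, array weights, replicate and slide blocks, scan day and each array left out. Settings on scan day 2 alone were chosen after seeing the data. Tables were made with numpy 2.4.6 and pandas 2.3.3 in Python 3.11.15, and figures with matplotlib 3.10.9.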

Additional observations from a re-analysis of the deposited data

Results flagged for a closer look

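Among the 15 probes and 10 marker lists, 50 groups of 7 arrays were searched for 1 array apart from the rest of its group by Dixon's criterion, and 3 were found, where chance alone gives about 1 in 20 groups. Ifngr1 probe A_51_P391445 stood at 3.96 in Sting gt/gt replicate 1, below the other 6 arrays of its group. Pancreatic genes averaged 7.41 in WT replicate 4, and NK cell genes 1.07 in Sting gt/gt replicate 7, above the rest of their groups.

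The genotype effect of 2 of the 15 probes differed between the scan days at an unadjusted p under 0.05 in an interaction test. In the fit over genes 18% of all genes passed that threshold, so no more is read from this count. For Ifnar1 probe A_51_P168545 the effect was lower by -0.56 on scan day 2 than on scan day 1, and for Ifngr1 probe A_51_P391445 it was higher by 0.40. Neither passed after adjustment over all probes by limma and Benjamini-Hochberg (adjusted p = 0.1301 and 0.253).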

How the results depend on the processing

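For the 9 genes and their other probes, of 323 comparisons under another setting with every array kept, 284 kept their direction and their side of the threshold, 6 lost the threshold, 13 gained it and 20 changed direction. The t-test, the Mann-Whitney test, the replicate block and scan day as a term leave the difference as it is, so they could not change its direction. Keeping outlier spots changed nothing, since no probe of the 9 genes was flagged. The count is therefore no measure of robustness. Parp14 and Herc6, counted apart, each lost the threshold under 2 settings. The count of called genes among the 9 was 2 in the deposited table, with array weights and with scan day as a term, and 0 with the mean of a gene's probes and with either block for slide, random or fixed. Over all genes it was 1928 in the deposited table, 4754 with array weights, 1415 with the replicate block, 1812 with scan day as a term and 444 with slide as a random block. With the mean of a gene's probes it was 905 and with slide as a fixed block 896, beside 867 in the main fit. The replicate block changed no other call except Irf9 probe A_51_P127367, which passed at -0.23. That probe, not the one its gene was read from, also passed with either block for slide. Leaving out 1 array at a time gave 0 to 2 called among the 9, a median over them of -0.12 to 0.012, 496 (without Sting gt/gt replicate 6) to 1968 (without Sting gt/gt replicate 1) called genes in all, and 2 to 3 of the 9 called on scan day 2. Over all genes the scan day 2 share was 23.3% with every array and 18% without WT replicate 4. It was not counted without the other arrays.

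Ifnar2 fell to -0.041 without scaling, -0.064 with the mean of its probes and -0.0031 with slide as a random block. Ifnar1 probe A_55_P2438722 was 0.024 with normexp and 0.0046 with array weights. Ifngr2 was -0.037 with slide as a random block. A fixed block for slide, which rests on the scan day 1 arrays (3 WT, 2 Sting gt/gt), gave -0.12 for Ifngr2, -0.10 for Ifngr1, 0.037 for Jak2, 0.070 for Ifnar1 probe A_51_P168545 and 0.049 for Ifnar2 probe A_51_P338924. On scan day 2 Ifnar2 was -0.0019 with quantile normalization, -0.00083 without scaling and -0.0014 in the deposited table, and Tyk2 was 0.0021 with median centring. The difference between scan days turned to -0.0086 (quantile) and -0.0082 (deposited table) for Ifnar2, to -0.091 and -0.062 for Jak1, and to 0.087 for Stat2 with median centring. The causes were not tested.

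With 1 array left out, the difference ran from -0.0043 to 0.040 for Ifnar2, -0.14 to 0.012 for Stat2 and -0.085 to 0.033 for Ifnar1 probe A_55_P2438722. On scan day 2 it ran from -0.17 to 0.10 for Tyk2, -0.18 to 0.020 for Stat2 and -0.11 to 0.020 for Irf9. The difference between scan days ran from -0.044 to 0.28 for Ifngr2, -0.046 to 0.18 for Jak1 and -0.14 to 0.062 for Stat2. Scaling moved the median of all genes by less than 0.1, and the share of called genes that were higher was 53.5%, against 30.6% with median centring, 19.5% without scaling and 63.8% with normexp. Adjusted calls over all genes numbered 0 or 1 under every scaling. The array count and the signal over background of Stat2 probe A_66_P102138 limit what can be seen.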
